A study of Mus musculus with 16 samples.

Results

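The BCL2 family decides whether the outer membrane of the mitochondrion is opened during apoptosis, and 10 of its genes were followed here among the 52636 genes of the count table. The members are defined by symbol: Bcl2, Bcl2l1, Mcl1, Bax, Bak1, Bid, Bcl2l11, Bad, Bbc3 and Pmaip1. Each was found once in the table through its Ensembl identifier, and all 10 passed the filter on low counts that left 18587 genes for testing. RNA was sequenced from islets of Langerhans, the endocrine cell clusters of the pancreas, of 12-week-old male mice labelled C57BL/6JRj (the study's methods give C57BL/6NRj). Islets of several mice were pooled, 500 were used per library, and culture lasted 10 days, with human serum in the medium. The 4 conditions were medium alone (control), 50 pg/mL IL-1β, 50 pg/mL IL-1β plus 0.2 mM butyrate, and 0.2 mM butyrate. The cytokine IL-1β is a mediator of inflammation, while butyrate, a product of bacterial fermentation in the gut, is known to inhibit histone deacetylases. Each condition had 4 libraries from independent experiments, so n = 4 throughout and a replicate is a pool of islets rather than a mouse.

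In the mitochondrial pathway of apoptosis, the antiapoptotic proteins BCL2, BCL-XL (Bcl2l1) and MCL1 bind and restrain the effectors BAX and BAK. When released, the effectors form pores that let cytochrome c out of the mitochondrion, and caspases are then activated. BH3-only proteins start the process, by engaging the antiapoptotic proteins, the effectors or both, and each is known to respond to its own signals. Beta cells, the insulin-secreting cells that make up most of a mouse islet, are known to use this pathway under cytokine and endoplasmic reticulum stress.

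The libraries held 18635943 to 25955943 counts on genes (median 22184715). Insulin transcripts (Ins1 and Ins2) took 18.6% to 20.4% of the counts in control libraries, 11.9% to 14.6% with IL-1β, 11.1% to 13.4% with both agents and 19.1% to 21.9% with butyrate, so the defining transcript of beta cells was abundant in every library. The summed level of 8 beta cell markers was 213096 to 235878 CPM (counts scaled to a common library size) in controls, 136621 to 178139 CPM with IL-1β, 136980 to 169054 CPM with both agents and 221199 to 260664 CPM with butyrate. A list of 10 macrophage and leukocyte markers summed to 21.1 to 31.1 CPM in controls, 86.5 to 149 CPM with IL-1β, 40.1 to 85.2 CPM with both agents and 16.4 to 26.6 CPM with butyrate, and every marker of the list had counts in each condition. IL-1β raised all 10 of these markers at an adjusted p under 0.01 in edgeR, and butyrate on top of it lowered 4. Delta cell markers summed to 1686 to 1985 CPM in controls, 1737 to 2213 CPM with IL-1β, 2616 to 3177 CPM with both agents and 2384 to 2764 CPM with butyrate, and all 8 libraries with butyrate lay above the others. Acinar markers summed to 18.7 to 30.0 CPM in controls, 18.9 to 27.01 CPM with IL-1β, 8.70 to 16.2 CPM with both agents and 13.6 to 19.7 CPM with butyrate. This sum joined genes that moved in opposite directions with IL-1β. Cela1, the most abundant of them, stood at -0.61 ± 0.17 on the log2 scale (adjusted p = 0.016 in edgeR). Ctrb1 rose by 3.31 ± 0.82 (adjusted p = 0.0088), and Prss2 stood at 2.61 ± 0.95 (adjusted p = 0.063). The number of acinar markers raised by IL-1β ran from 0 to 2 with a library left out. The sum of 5 duct markers was 339.8 to 366 CPM in controls, 499 to 596 CPM with IL-1β, 513 to 810.1 CPM with both agents and 326 to 366 CPM with butyrate. Spp1 alone had means of 11.9 CPM in controls, 158 CPM with IL-1β and 348 CPM with both agents. Krt7 had means of 336, 394 and 338 CPM in that order. Krt19 and Sox9 had means of 1.43 to 2.39 CPM over the 4 conditions, and Cftr was removed by the filter on low counts. The part of these cell markers in the changes of the BCL2 family genes was not tested, and in bulk RNA fewer cells of a type cannot be told apart from less RNA per cell.

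The sequences just upstream of 3 of the genes are shown for orientation, since Bid had the smallest p over the 4 conditions and Bax and Bcl2l11 both fell when butyrate was added to IL-1β. They are the 250 bases before the start of the gene in RefSeq, on the strand of the gene, from build GRCm38.p6, and 9 of the 10 genes had such an entry. Bid lies at chr6:120916825-120917074 on the minus strand, Bax at chr7:45466899-45467148 on the minus strand and Bcl2l11 at chr2:128125788-128126037 on the plus strand. Capitals mark matches, on either strand, to GGGCGG (the GC box), CACGTG (the E-box), GTAAACA (the forkhead motif) and the half-site bound by p53.
Bid: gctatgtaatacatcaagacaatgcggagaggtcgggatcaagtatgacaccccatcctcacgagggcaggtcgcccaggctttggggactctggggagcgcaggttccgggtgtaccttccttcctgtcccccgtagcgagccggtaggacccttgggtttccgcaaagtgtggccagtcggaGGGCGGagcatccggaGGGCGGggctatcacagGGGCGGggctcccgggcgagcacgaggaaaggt
Bax: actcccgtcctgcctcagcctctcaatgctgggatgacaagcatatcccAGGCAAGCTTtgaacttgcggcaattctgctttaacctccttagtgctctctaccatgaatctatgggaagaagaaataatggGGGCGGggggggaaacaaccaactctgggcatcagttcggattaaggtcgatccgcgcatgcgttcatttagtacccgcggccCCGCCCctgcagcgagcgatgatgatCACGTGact
Bcl2l11: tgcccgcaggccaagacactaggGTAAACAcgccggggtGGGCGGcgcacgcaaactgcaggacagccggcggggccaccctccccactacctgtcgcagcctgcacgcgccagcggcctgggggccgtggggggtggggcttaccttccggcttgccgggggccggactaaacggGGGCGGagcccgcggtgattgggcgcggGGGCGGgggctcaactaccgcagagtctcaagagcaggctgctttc
The GC box was found in 7 of the 9 windows and in 32.7% of 32817 RefSeq windows of this length. CACGTG stood only in the Bax window of the 9 (6.02% of all windows), as did a p53 half-site (7.12% of all windows), while GTAAACA stood only in that of Bcl2l11 (3.16% of all windows). A loose core of the NF-κB site was in 8 of the 9 windows and in 45.8% of all windows, and TTCNNNGAA, the STAT motif, was in 0 of the 9 and in 7.01% of all windows. These matches describe letters in the windows and not sites in use.

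Levels were compared between genes as CPM per kilobase of annotated exons. In control islets Mcl1 stood at 26.1 ± 1.2 and Bax at 24.0 ± 1.5 CPM per kilobase (mean ± SD, n = 4). Bbc3 (8.37 ± 0.26), Bcl2l1 (8.25 ± 0.32) and Bad (6.40 ± 0.28) followed, then Bak1 (2.80 ± 0.29) and Bcl2l11 (2.24 ± 0.22), all in CPM per kilobase. The lowest were Bid (0.83 ± 0.11), Pmaip1 (0.525 ± 0.23) and Bcl2 (0.494 ± 0.034). The ranges over the control libraries overlapped between Mcl1 and Bax, between Bbc3 and Bcl2l1, between Bak1 and Bcl2l11, between Bid and Pmaip1 and between Pmaip1 and Bcl2, so the order within these pairs was not larger than the spread. Thus Bcl2, the founding member, was one of the least abundant transcripts of the group per length, and Mcl1 was more abundant than Bcl2 and Bcl2l1 in all 4 conditions. Bcl2l2, a family gene outside this group, was not compared per length. Its mean was 109.4 CPM in controls and 118.7 CPM with butyrate, against 89.1 and 91.7 CPM for Mcl1. With IL-1β the means were 110.8 CPM for Bcl2l2 and 109.8 CPM for Mcl1, and with both agents 108.2 and 112.3 CPM.

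**Figure D1:**
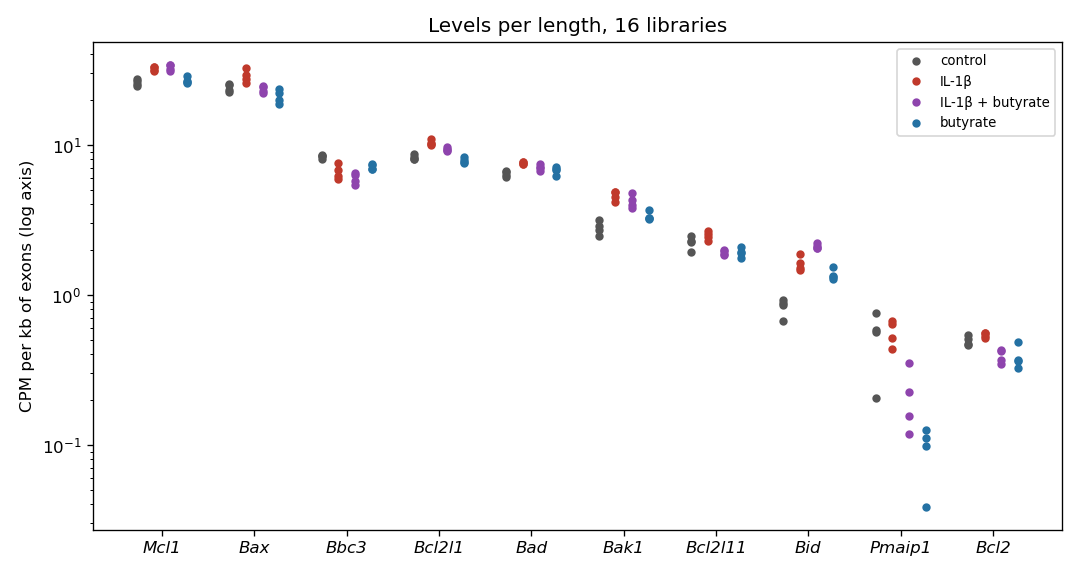
CPM per kilobase of exons (log axis) of the 10 genes, ordered by their mean in control islets; each point is 1 of 16 libraries, coloured by condition. Mcl1 and Bax lie near 25 CPM per kilobase, and Pmaip1 spreads from 0.75 in a control library to below 0.13 in all butyrate libraries.

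Mcl1 encodes a short-lived antiapoptotic protein. Its gene lies at 3:95658788-95663176 on the plus strand of GRCm38 (ENSMUSG00000038612). In replicates 1 to 4, its level was 91.4, 93.4, 84.5 and 87.0 CPM in control islets and 113, 113, 106 and 107 CPM with IL-1β. With both agents it was 106, 117, 117 and 109.6 CPM, and with butyrate 98.0, 89.3, 91.0 and 88.3 CPM. All 8 libraries with IL-1β, with or without butyrate, lay above all 8 libraries without it. IL-1β raised Mcl1 by 0.30 ± 0.05 on the log2 scale (SE, adjusted p = 2e-05 in edgeR's quasi-likelihood test) and IL-1β plus butyrate raised it by 0.33 ± 0.05 over control (adjusted p = 2.3e-06). Butyrate gave differences of 0.03 in the presence of IL-1β (95% interval -0.06 to 0.13) and 0.04 in its absence (95% interval -0.06 to 0.14), neither of which passed the test.

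Bcl2l1 encodes BCL-XL, the long-lived antiapoptotic protein of many epithelia and neurons, from 2:152780668-152831728 on the minus strand (ENSMUSG00000007659). Its control libraries had 39.9, 36.7, 37.9 and 36.9 CPM and its IL-1β libraries 46.9, 50.4, 46.5 and 45.6 CPM. With both agents the level was 41.8, 43.0, 44.3 and 42.6 CPM, and with butyrate alone 36.5, 37.8, 35.4 and 34.6 CPM. The libraries with both agents thus lay between control and IL-1β without touching either. The rise with IL-1β was 0.32 ± 0.05 on the log2 scale, or 25.2% (adjusted p = 6.2e-06), and that with both agents over control was 0.18 ± 0.05 (adjusted p = 0.0028). The step from IL-1β to both agents, -0.14 ± 0.05, had an adjusted p of 0.025 and was not called. The call of both agents over control was lost without control replicate 2 (adjusted p = 0.014), control replicate 4 (0.013) or replicate 3 with both agents (0.014), and the step from IL-1β to both agents was called without IL-1β replicate 4 (adjusted p = 0.009).

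Bcl2, at 1:106538178-106714274 on the minus strand (ENSMUSG00000057329), had 4.25, 4.29, 4.92 and 4.62 CPM in controls and 5.07, 5.06, 4.87 and 4.73 CPM with IL-1β. It had 3.17, 3.35, 3.85 and 3.90 CPM with both agents and 3.31, 2.98, 4.44 and 3.36 CPM with butyrate. Every library with both agents was below every control and every IL-1β library, whereas replicate 3 of butyrate reached into the control range. In the presence of IL-1β, Bcl2 fell by 27.7% with butyrate (-0.47 ± 0.12 on the log2 scale, adjusted p = 0.0042). Without IL-1β the difference was -0.37 ± 0.12 (adjusted p = 0.026) and was not called, but it was called without butyrate replicate 3 (-0.49, adjusted p = 0.0041). The call in the presence of IL-1β was lost without IL-1β replicate 2 (adjusted p = 0.011) or without replicate 1 (0.015) or 2 (0.012) with both agents, and with upper-quartile scaling (0.01). IL-1β alone gave 0.12 ± 0.12 (adjusted p = 0.49).

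Bax, the effector that moves from the cytosol to the mitochondrion, lies at 7:45461697-45466898 on the minus strand (ENSMUSG00000003873). Control libraries had 40.3, 39.3, 36.6 and 35.3 CPM, and IL-1β libraries 46.1, 51.2, 43.3 and 40.5 CPM. With both agents there were 38.8, 38.1, 35.8 and 35.0 CPM, and with butyrate 34.7, 37.0, 31.5 and 29.3 CPM. The IL-1β libraries lay above all others, the lowest of them just above the highest control library, and the libraries with both agents fell within or just below the control range. IL-1β raised Bax by 19.3% (0.25 ± 0.07 on the log2 scale, adjusted p = 0.0079), it fell by 18.2% with butyrate on top of IL-1β (-0.29 ± 0.07, adjusted p = 0.0026), and both agents against control gave -0.04 ± 0.07 (adjusted p = 0.75). Butyrate alone gave -0.19 ± 0.07 (adjusted p = 0.043). This change was called without a filter on low counts (-0.21, adjusted p = 0.0046) and with the replicate number as a block in the fit (-0.20, adjusted p = 0.00098). The rise with IL-1β was lost without control replicate 2 (adjusted p = 0.012), 3 (0.028) or 4 (0.035) or IL-1β replicate 1 (0.014) or 2 (0.041), with upper-quartile scaling (0.014) and with only both groups in the fit (0.01), and the fall with butyrate was lost without IL-1β replicate 2 (0.013).

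Bak1 encodes BAK, the effector that resides on the mitochondrion, from 17:27019810-27029009 on the minus strand (ENSMUSG00000057789). Its level was 7.56, 6.96, 6.50 and 5.91 CPM in controls and 9.98, 11.6, 10.8 and 11.7 CPM with IL-1β. It was 10.4, 9.08, 9.50 and 11.4 CPM with both agents and 7.78, 7.86, 7.73 and 8.82 CPM with butyrate. All libraries with IL-1β exceeded all those without it, and the butyrate libraries all exceeded the controls. The rise was 64.4% with IL-1β (0.72 ± 0.09 on the log2 scale, adjusted p = 8e-07) and 49.7% with both agents (0.58 ± 0.09, adjusted p = 1.1e-05). Butyrate alone gave 0.26 ± 0.10 (adjusted p = 0.041) and on top of IL-1β -0.13 ± 0.09 (adjusted p = 0.27). Exons of Ggnbp1 on the opposite strand cover 18.2% of those of Bak1. The library kit does not mark strand, so reads in the shared part cannot be assigned by strand. Ggnbp1 itself differed by -0.11 with IL-1β (adjusted p = 0.61) and by 0.40 with butyrate (adjusted p = 0.023).

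Bid, whose protein is cut by caspase-8 and so links death receptors to the mitochondrion, showed the largest rises among the 10 genes in each of the 4 pairwise comparisons. It lies at 6:120891930-120916853 on the minus strand (ENSMUSG00000004446). Controls had 3.03, 2.38, 3.11 and 3.25 CPM, from 57 to 76 counts a library, and IL-1β libraries had 5.17, 5.36, 6.63 and 5.77 CPM. With both agents the level was 7.47, 7.85, 7.31 and 7.27 CPM, from 151 to 185 counts, and with butyrate 5.47, 4.75, 4.49 and 4.69 CPM. No control library reached any other library, and the 4 libraries with both agents were the 4 highest of all 16. IL-1β raised Bid 1.95-fold (0.96 ± 0.12 on the log2 scale, adjusted p = 2.7e-07), butyrate 1.65-fold (0.72 ± 0.12, adjusted p = 3.4e-05) and both agents 2.55-fold (1.35 ± 0.11, adjusted p = 1.8e-10).

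On top of IL-1β, butyrate raised Bid 1.30-fold (0.38 ± 0.10, adjusted p = 0.0053). That last call was lost without IL-1β replicate 1 (adjusted p = 0.029), 2 (0.019) or 4 (0.016), without replicate 1 (0.016), 2 (0.024), 3 (0.015) or 4 (0.013) with both agents, and in DESeq2 (0.012), with changes of 0.32 to 0.44 on the log2 scale over all alternatives. The other 3 calls of Bid held in all 23 alternatives. The exons of Bid share 628 of 3550 bases (17.7%) with Bcl2l13 on the opposite strand, a more abundant gene at 63.2 to 73.7 CPM (condition means). Bcl2l13 differed by -0.05 with IL-1β (adjusted p = 0.45), and it rose by 0.18 with butyrate on top of IL-1β (adjusted p = 0.0012), by 0.17 with butyrate (adjusted p = 0.0019) and by 0.14 with both agents (adjusted p = 0.0089). The part of reads from Bcl2l13 in the changes of Bid was not tested.

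Bcl2l11 encodes BIM, a BH3-only protein that binds all antiapoptotic relatives, from 2:128126038-128162547 on the plus strand (ENSMUSG00000027381). It stood at 19.9, 15.6, 18.3 and 17.98 CPM in controls and at 20.5, 18.3, 21.4 and 19.4 CPM with IL-1β. It stood at 15.96, 14.8, 15.6 and 15.02 CPM with both agents and at 14.1, 15.5, 16.7 and 15.4 CPM with butyrate. All libraries with both agents were below all IL-1β libraries, and control replicate 2 was the only control library within the range of the butyrate-treated libraries. With butyrate on top of IL-1β, Bcl2l11 fell by 22.7% (-0.37 ± 0.07 on the log2 scale, adjusted p = 0.00026), a call that held in all 23 alternatives. Against control, butyrate gave -0.22 ± 0.07 (adjusted p = 0.025) and both agents -0.22 ± 0.07 (adjusted p = 0.015). Without control replicate 2 both were called (-0.28 with adjusted p = 0.0046, and -0.29 with adjusted p = 0.0024). Both were also called with the replicate number as a block in the fit of all 16 libraries (adjusted p = 0.0082 and 0.0042).

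Bad, a BH3-only protein held inactive by phosphorylation and 14-3-3 proteins, lies at 19:6941861-6951899 on the plus strand (ENSMUSG00000024959). Its level was 16.1, 17.1, 16.8 and 15.5 CPM in controls and 19.5, 19.1, 19.1 and 19.5 CPM with IL-1β. It was 17.1, 19.1, 18.3 and 17.9 CPM with both agents and 18.2, 17.3, 17.6 and 15.8 CPM with butyrate. The IL-1β libraries were tightly grouped and above all others, the lowest of them (19.13 CPM) just above replicate 2 with both agents (19.10 CPM). IL-1β raised Bad by 18.1% (0.24 ± 0.06 on the log2 scale, adjusted p = 0.0034), a call lost without control replicate 1 (adjusted p = 0.01) or control replicate 4 (0.02). No other comparison was called, with -0.10 ± 0.06 for butyrate on top of IL-1β (adjusted p = 0.24) and 0.14 ± 0.06 for both agents against control (adjusted p = 0.06). Exons of Gpr137 on the opposite strand cover 20.5% of those of Bad, and the smallest adjusted p of Gpr137 over the 4 pairwise comparisons was 0.094.

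Bbc3 encodes PUMA, a BH3-only protein known as a target of p53, from 7:16308393-16318205 on the plus strand (ENSMUSG00000002083). Controls had 17.0, 18.2, 17.96 and 17.98 CPM and IL-1β libraries 12.6, 13.2, 14.5 and 16.2 CPM. With both agents there were 11.5, 12.1, 13.8 and 13.4 CPM, and with butyrate 14.6, 14.7, 15.8 and 15.6 CPM. Every treated library was below every control library. Alone among the 10 genes in falling under IL-1β, Bbc3 fell by 20.2% (-0.33 ± 0.07 on the log2 scale, adjusted p = 0.0013), and with both agents it fell by 28.7% (-0.49 ± 0.07, adjusted p = 5.8e-06). Butyrate alone gave -0.23 ± 0.07 (adjusted p = 0.02). This change was called with only both groups in the fit (adjusted p = 0.0077) and with the replicate number as a block (0.0034). On top of IL-1β butyrate gave -0.16 ± 0.08 (adjusted p = 0.11). The fall with IL-1β was lost without IL-1β replicate 1 (adjusted p = 0.011) and when only library size was used for scaling (0.023).

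Pmaip1 encodes NOXA, a BH3-only protein that binds MCL1 and is known as another p53 target, from 18:66458533-66465565 on the plus strand (ENSMUSG00000024521). It was scarce. Controls had 12, 38, 43 and 36 counts (0.560, 1.58, 2.05 and 1.54 CPM) and IL-1β libraries 23, 36, 35 and 39 counts (1.19, 1.75, 1.81 and 1.41 CPM). With both agents there were 8, 10, 14 and 20 counts (0.325, 0.424, 0.613 and 0.963 CPM), and with butyrate 6, 6, 2 and 8 counts (0.301, 0.266, 0.105 and 0.344 CPM). Libraries with butyrate were all below the IL-1β libraries, and control replicate 1 was far below the other controls and within the range of the libraries with both agents. With butyrate Pmaip1 fell by 81.7% against control (-2.45 ± 0.40 on the log2 scale, adjusted p = 2.9e-05), the largest change of any of the 10 genes, and it fell by 62.6% in the presence of IL-1β (-1.42 ± 0.33, adjusted p = 0.0019). Both calls held in all 23 alternatives.

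IL-1β alone left Pmaip1 with a difference of 0.10 ± 0.29 (95% interval -0.50 to 0.70, adjusted p = 0.85), and -0.16 without control replicate 1. Both agents against control gave -1.32 ± 0.34 (adjusted p = 0.0023), a call lost without control replicate 3 (adjusted p = 0.014) or without replicate 1 (0.013) or 2 (0.011) with both agents, and with only both groups in the fit (0.012). At counts this low the size of the change is loosely set, as the 95% interval of the butyrate effect, from -3.26 to -1.63, shows.

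**Figure D2:**
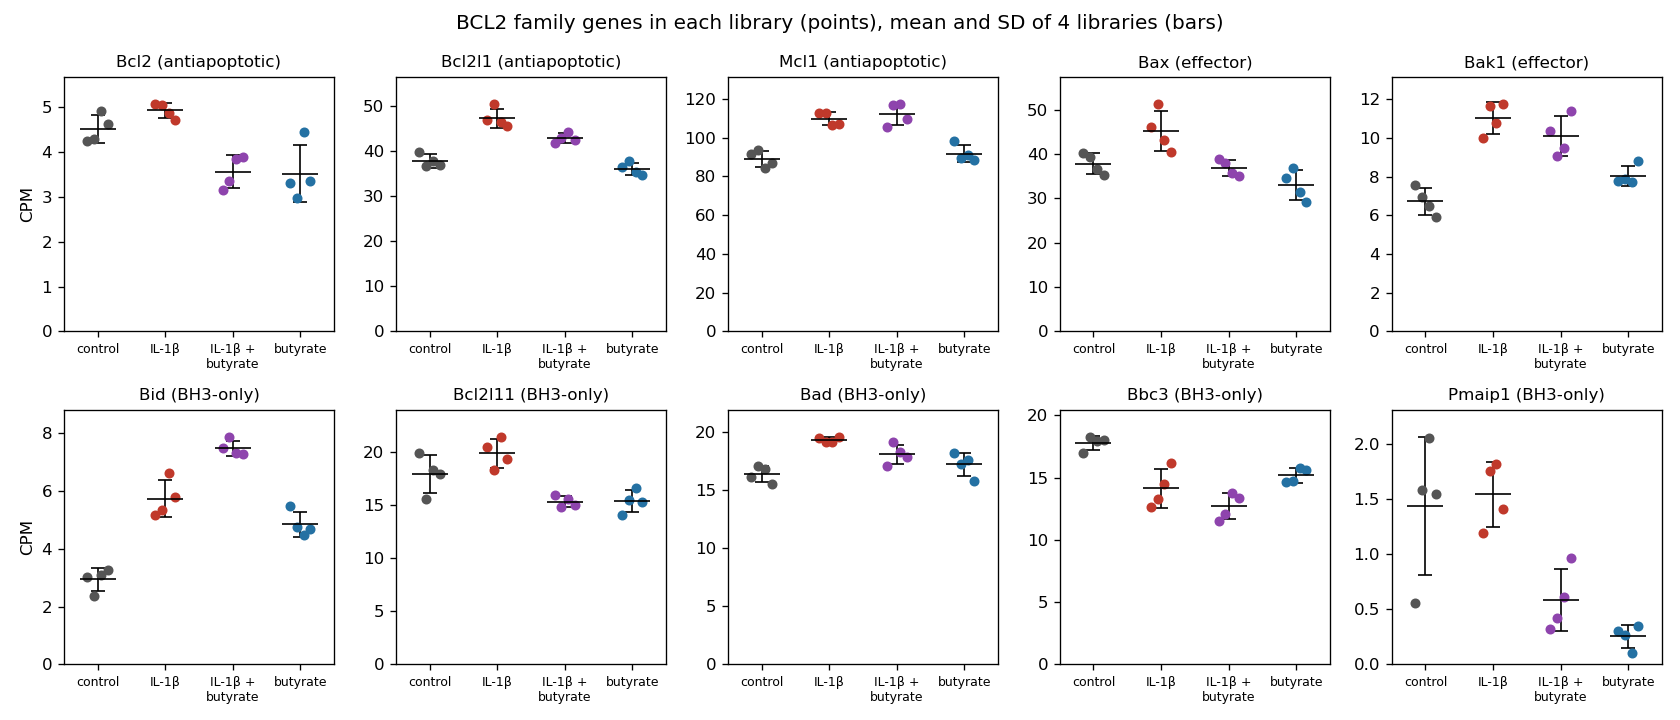
CPM of each gene (vertical axes, each starting at 0) in the 4 conditions; points are libraries, in replicate order from left to right, and bars are the mean and SD of 4 libraries. Bid steps up from 2.94 CPM in control to 7.48 CPM with both agents, and Pmaip1 steps down from 1.43 CPM in control to 0.254 CPM with butyrate.

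IL-1β against control asked how the cytokine at a low dose changed the islets, and in the BCL2 family it moved genes of all 3 roles. Of the 10 genes, 7 passed an adjusted p under 0.01 in edgeR, 6 of them raised (Bcl2l1, Mcl1, Bax, Bak1, Bid and Bad) and 1 lowered (Bbc3). Among all 18587 genes tested the share called was 17.8%, with 11.2% raised and 6.59% lowered. The groups did not overlap for the same number, 7 of the 10 genes, against 24.7% of all genes. The median log2 fold change was 0.25 over the 10 genes and -0.03 over all genes. Rises were thus found in antiapoptotic genes (2 of 3), effectors (2 of 2) and BH3-only genes (2 of 5, with 1 lowered). The number raised fell to 4 without control replicate 4. The calls of Bax, Bad and Bbc3 were lost in 7, 2 and 2 of 23 alternatives.

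When butyrate was added to IL-1β, the question being what butyrate does under the cytokine, 5 of the 10 genes were called: Bid was raised, and Bcl2, Bax, Bcl2l11 and Pmaip1 were lowered. The background was 19.5% of genes called, 8.41% raised and 11.1% lowered. Groups did not overlap for 7 of the 10, against 26.9% of all genes, and the median was -0.15 over the 10 genes against 0.01 over all. The number called fell to 2 without IL-1β replicate 2 and to 3 without replicate 1 or without replicate 2 with both agents. Of the 6 genes that IL-1β raised, butyrate on top lowered 1 (Bax) and raised 1 further (Bid), while Bcl2l1, Mcl1, Bak1 and Bad did not pass the test. These comparisons share the IL-1β libraries.

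Butyrate alone against control called 2 of the 10 genes, Bid raised and Pmaip1 lowered, where 19.9% of all genes were called (8.53% raised and 11.4% lowered). With the replicate number as a block in the fit 5 of the 10 were called, with Bax, Bbc3 and Bcl2l11 also lowered, against 4879 of all 18587 genes. Groups did not overlap for 4 of the 10 (Bak1, Bid, Bbc3 and Pmaip1), against 30.1% of all genes, and the median was -0.13 against 0.01. Both agents against control called 6 of the 10, with Bcl2l1, Mcl1, Bak1 and Bid raised and Bbc3 and Pmaip1 lowered. In that comparison 30.6% of all genes were called (15.8% raised and 14.8% lowered), the groups did not overlap for 7 of the 10 against 38.5% of all genes, and the median was 0.05 against 0.00. The control libraries are shared by 3 of these comparisons.

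**Figure D3:**
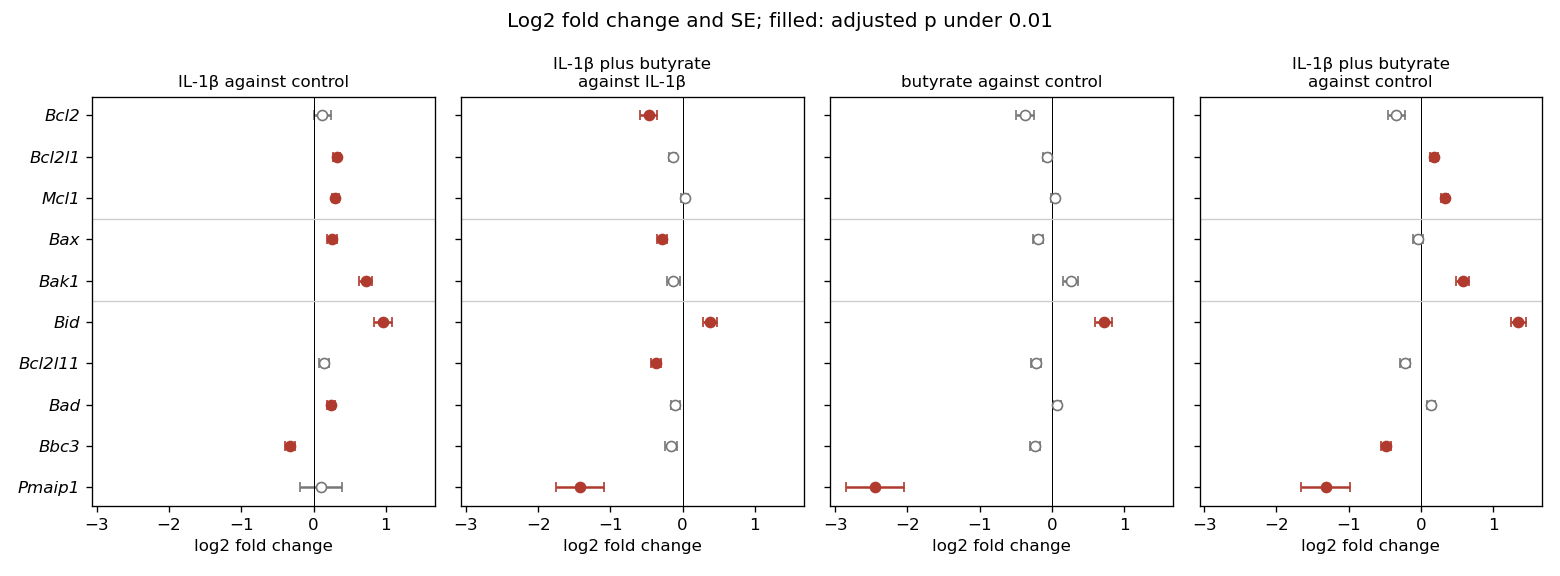
Log2 fold change (horizontal axis) and SE of the 10 genes, ordered by role from antiapoptotic (top) through effectors to BH3-only genes, in the 4 pairwise comparisons; filled points passed an adjusted p under 0.01. Bid lies to the right of 0 in all 4 panels, from 0.38 to 1.35, and Pmaip1 reaches -2.45 with butyrate alone.

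Whether butyrate acted differently in the presence of IL-1β was tested as an interaction, and 0 of the 10 genes passed in edgeR, where 0.0968% of all genes did (0.043% raised and 0.0538% lowered). DESeq2 also called 0 of 10. Those with an unadjusted value under 0.05 were 2 in edgeR, Bak1 (-0.40 ± 0.13 on the log2 scale, adjusted p = 0.33) and Bid (-0.34 ± 0.16, adjusted p = 0.65). In Bid, butyrate alone gave 0.72 and butyrate on top of IL-1β 0.38, and in Bak1 the effects were 0.26 and -0.13. For Pmaip1 the difference was 1.03 ± 0.54 (95% interval -0.09 to 2.15, adjusted p = 0.73).

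Because BAX is restrained by its antiapoptotic relatives, the ratio of their transcripts was described in each library, without a test. On the log2 scale the ratio of Bax to Bcl2 (in CPM) ran from 2.89 to 3.25 in controls, 3.10 to 3.34 with IL-1β, 3.17 to 3.62 with both agents and 2.83 to 3.63 with butyrate. The ranges of all 4 conditions overlapped, with no matching of libraries by replicate number. The ratio of Bax to Bcl2l1 ran from -0.06 to 0.10 in controls, -0.17 to 0.02 with IL-1β, -0.31 to -0.11 with both agents and -0.24 to -0.03 with butyrate. The libraries with both agents were all below the controls, with means of -0.22 and 0.00, and overlapped the other conditions. Since CPM was not scaled by gene length here, the size of a ratio depends on the lengths of both transcripts and only its differences between libraries were compared.

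**Figure D4:**
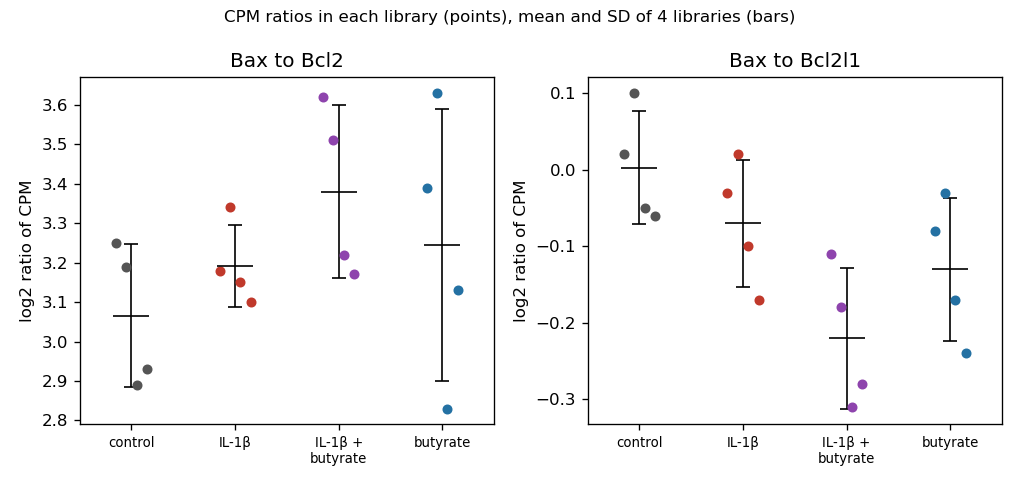
Log2 ratio of the CPM of Bax to that of Bcl2 (left) and of Bcl2l1 (right) in each library (points), with mean and SD of 4 libraries per condition; the vertical axes do not start at 0. Bax to Bcl2 overlaps between all conditions (means 3.07, 3.19, 3.38 and 3.24 from left to right), and Bax to Bcl2l1 is lowest with both agents (mean -0.22).

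Among 15 other genes of the BCL2 family, 11 were tested. The filter removed Bcl2l10, Bcl2a1a, Bcl2a1b and Bcl2a1d, with at most 6, 3, 11 and 5 counts in any library, and the Bcl2a1 genes are near-identical copies between which reads can be split. IL-1β raised 2 (Bcl2l14 and Bik) and lowered 1 (Hrk), butyrate on top raised 3, butyrate alone raised 3, and both agents against control raised 4. Over all genes tested the shares called in these comparisons were 17.8%, 19.5%, 19.9% and 30.6%, and the counts of the lists below are read beside the same shares. The median log2 fold changes in that order were 0.02, 0.38, 0.12 and 0.30, beside medians over all genes between -0.03 and 0.01. Bmf, a BH3-only gene known to respond to loss of cell attachment, rose by 0.73 ± 0.13 with butyrate on top of IL-1β (adjusted p = 0.00011) and by 0.61 ± 0.13 with butyrate alone (adjusted p = 0.0013). It went from 6.79 to 11.4 CPM and from 5.85 to 8.93 CPM, respectively, so that with Bid it was one of the BH3-only genes that rose in both butyrate comparisons.

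Bik, a BH3-only gene of the endoplasmic reticulum, rose by 0.80 ± 0.16 with butyrate alone (adjusted p = 0.00047) and by 1.08 ± 0.16 with both agents (adjusted p = 3.5e-06). Its rise with IL-1β (0.70 ± 0.17, adjusted p = 0.0018) was lost without IL-1β replicate 4 and with only both groups in the fit (adjusted p up to 0.012). Hrk, a BH3-only gene known from neurons, rose by 1.19 ± 0.25 with butyrate on top of IL-1β (adjusted p = 0.00052). Its fall with IL-1β (-0.88 ± 0.25, adjusted p = 0.0098) did not hold in 17 of 23 alternatives, with any library left out other than control replicate 1 or IL-1β replicate 3 (highest adjusted p = 0.053). Bcl2l14 rose by 1.32 ± 0.28 with IL-1β (adjusted p = 0.00077), from 0.686 to 1.74 CPM.

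Downstream of the mitochondrion, Endog and Diablo are described here among the genes of released factors. Both fell, but they do not stand for their list, in which calls went in both directions. Endog, which encodes a mitochondrial nuclease, fell by 0.42 with butyrate on top of IL-1β (-0.42 ± 0.10, adjusted p = 0.0017) and by 0.54 with butyrate alone (-0.54 ± 0.10, adjusted p = 0.00012). Exons of Spout1 on the opposite strand cover 35.7% of those of Endog. Those of Diablo are covered by B3gnt4 on the opposite strand (21.5%) and by Gm49027 on the same strand (19.3%). Diablo, whose protein relieves caspases of their inhibitors, fell with both agents against control (-0.28 ± 0.05, adjusted p = 0.0001).

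Those caspase inhibitors, the inhibitor of apoptosis proteins, were represented by 5 genes. IL-1β raised 1, butyrate on top raised 1 and lowered 1, butyrate alone lowered 3, and both agents raised 1 and lowered 2. The gene lowered with butyrate on top (Birc5) was lost in 8 of 23 alternatives (adjusted p up to 0.027). Birc3, which encodes cIAP2 and is a known NF-κB target, rose by 2.52 ± 0.08 with IL-1β, from 9.59 to 54.7 CPM (adjusted p = 2.7e-18), and by a further 0.38 ± 0.07 with butyrate on top (adjusted p = 8.2e-05). Birc5, which encodes survivin and also serves cell division, fell by 1.18 with butyrate alone (-1.18 ± 0.23, adjusted p = 0.00041). Birc2 fell by 0.27 (-0.27 ± 0.05, adjusted p = 0.00039). Xiap, at -0.19 ± 0.05 (adjusted p = 0.0063), lost its call without control replicate 1, 2 or 3, without any 1 of the butyrate libraries and with upper-quartile scaling (adjusted p up to 0.039).

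Of 9 genes of the death receptor arm that acts on BID, Fasl was filtered out (at most 2 counts) and 8 were tested. IL-1β raised 3, butyrate on top lowered 1, butyrate alone raised 1 and lowered 1, and both agents raised 3 and lowered 1. Fas, a death receptor, rose by 2.14 ± 0.25 with IL-1β, from 0.464 to 2.07 CPM (adjusted p = 2e-07), and Tnfrsf1a, the receptor of TNF, by 0.89 ± 0.07, from 37.0 to 68.8 CPM (adjusted p = 1.5e-10). Ripk1 rose by 0.24 ± 0.05 (adjusted p = 0.00082). Cflar, which encodes the caspase-8 inhibitor FLIP, fell by 0.19 with butyrate on top of IL-1β (-0.19 ± 0.05, adjusted p = 0.0021) and by 0.20 without it (-0.20 ± 0.05, adjusted p = 0.0012). With butyrate on top of IL-1β Fas stood at -0.11 (adjusted p = 0.73) and Tnfrsf1a at 0.09 (adjusted p = 0.3). A further receptor, Tnfrsf10b (named after its values were seen), did not pass with IL-1β (0.40 ± 0.18, adjusted p = 0.097). The rise of 1 gene (Tnfrsf1a) with butyrate alone was lost without control replicate 4 or butyrate replicate 1 or 2.

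Bax, Bbc3 and Pmaip1 are textbook targets of p53, and 13 further genes of p53 and its targets were tested. IL-1β raised 4 and lowered 1, butyrate on top lowered 9, butyrate alone lowered 9, and both agents against control lowered 4. The last count was 2 without control replicate 2 or without replicate 3 or 4 with both agents, and up to 6 with another library left out. The medians over the list in this order were 0.17, -0.32, -0.31 and -0.15 on the log2 scale, beside -0.03, 0.01, 0.01 and 0.00 over all genes. Eda2r, a receptor of the TNF receptor family, rose by 0.80 ± 0.14 with IL-1β (adjusted p = 4.8e-05), fell by 1.27 with butyrate on top (-1.27 ± 0.14, adjusted p = 1.3e-07) and fell by 1.65 with butyrate alone (-1.65 ± 0.18, adjusted p = 5.7e-08). Phlda3, which encodes an inhibitor of AKT, fell by 0.93 and 1.34 in the butyrate comparisons (-0.93 ± 0.14, adjusted p = 2.2e-05, and -1.34 ± 0.16, adjusted p = 8.1e-07).

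Cdkn1a, which encodes the cell cycle inhibitor p21, stood at 63.9 CPM in control, 66.8 CPM with IL-1β, 42.3 CPM with both agents and 38.2 CPM with butyrate. It fell by 0.65 with butyrate on top of IL-1β (-0.65 ± 0.08, adjusted p = 1.9e-06). Trp53inp1 fell by 0.33 and 0.52 in the butyrate comparisons (-0.33 ± 0.05, adjusted p = 1.2e-05, and -0.52 ± 0.05, adjusted p = 1.3e-08). Of the BCL2 family genes of this kind, Pmaip1 fell in both butyrate comparisons. Bax stood at -0.29 and -0.19 and Bbc3 at -0.16 and -0.23 in them, of which the first value of Bax was called. In the IL-1β comparison Bbc3 fell, while Bax and 4 genes of the list rose. Besides Eda2r the 4 were Trp53 itself, Ccng1 and Aen (named after their values were seen). Mdm4 (also named afterwards) was the 1 gene of the list lowered there (-0.27 ± 0.06, adjusted p = 0.00092 in edgeR).

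**Figure D5:**
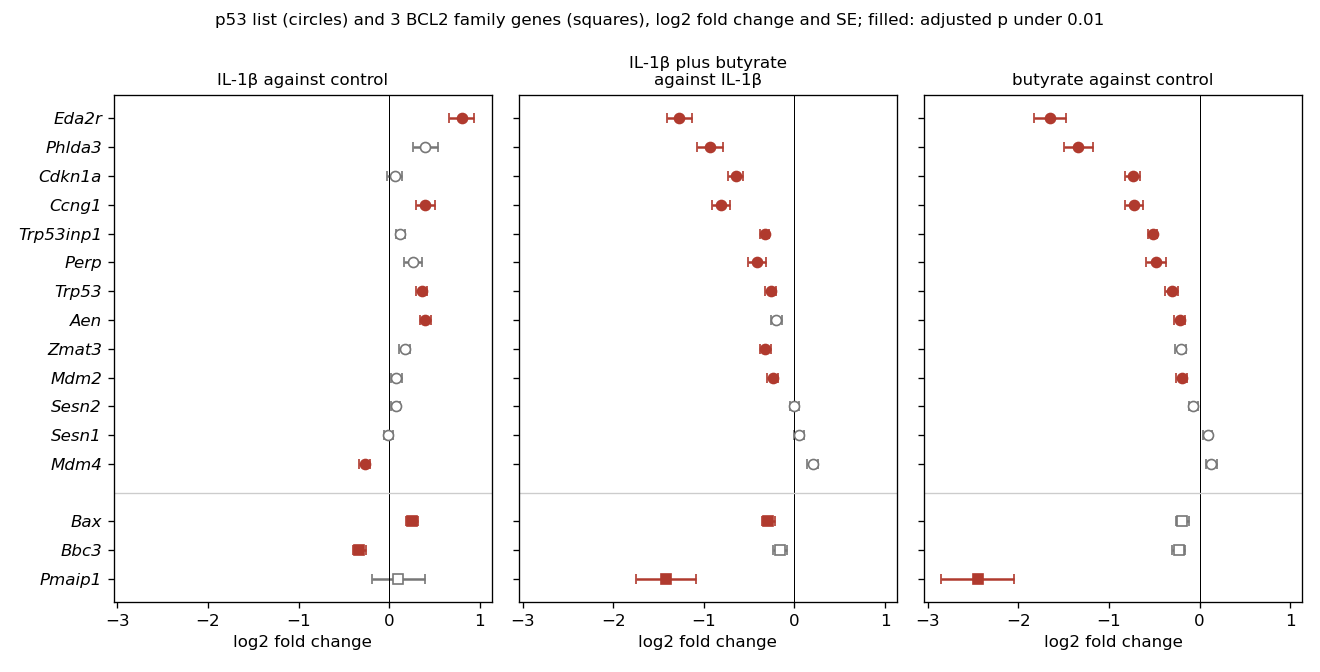
Log2 fold change (horizontal axis) and SE of 13 genes of p53 and its targets (circles) and of Bax, Bbc3 and Pmaip1 (squares) in 3 comparisons; filled symbols passed an adjusted p under 0.01. With butyrate, 9 of the 13 circles are filled and left of 0 in each of the right-hand panels, and Pmaip1 lies at -1.42 and -2.45.

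Of 12 transcription factors and stress genes known upstream of BH3-only genes, IL-1β raised 4 and lowered 3, butyrate on top raised 4 and lowered 1, butyrate alone raised 4 and lowered 2, and both agents raised 5 and lowered 1. Single libraries moved these counts: the 3 lowered by IL-1β became 1 without control replicate 2, 3 or 4, without IL-1β replicate 1, 3 or 4 or without replicate 1, 2 or 3 with both agents. The 4 raised by butyrate alone became 2 without control replicate 4 or butyrate replicate 2, the 1 lowered with butyrate on top became 2 without IL-1β replicate 1 or butyrate replicate 4, and the 5 raised by both agents became 3 without replicate 1 with both agents. Stat3 rose by 1.10 ± 0.05 with IL-1β, from 150.1 to 321 CPM (adjusted p = 1e-15). E2f1 fell by 0.51 with butyrate on top of IL-1β (-0.51 ± 0.08, adjusted p = 9.9e-06) and by 0.91 with butyrate alone (-0.91 ± 0.08, adjusted p = 1.1e-09). Foxo1, a known activator of Bcl2l11, rose in the same comparisons by 0.28 ± 0.05 (adjusted p = 0.00013) and 0.43 ± 0.05 (adjusted p = 2.6e-07), in which Bcl2l11 stood at -0.37 and -0.22. Foxo3 rose by 0.28 ± 0.05 with butyrate alone (adjusted p = 0.0002).

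Partners of BCL2 proteins and enzymes of their turnover (16 genes) gave 1 raised and 4 lowered with IL-1β, 3 and 3 with butyrate on top, 3 and 1 with butyrate alone, and 2 and 4 with both agents. The 4 lowered by IL-1β became 2 without control replicate 1 or 3 or IL-1β replicate 2, and the 1 raised became 2 without IL-1β replicate 1. The 3 lowered with butyrate on top became 1 with upper-quartile scaling or with only both groups in the fit, and the counts with both agents became 7 raised and 2 lowered with library size only. Vdac1, the channel of the outer mitochondrial membrane, fell by 0.27 with IL-1β (-0.27 ± 0.04, adjusted p = 9.7e-06) and rose by 0.29 ± 0.04 with butyrate on top (adjusted p = 4.3e-06) and by 0.38 ± 0.04 with butyrate alone (adjusted p = 5e-08). Fbxw7, a ubiquitin ligase subunit that marks MCL1 for degradation, rose by 0.39 ± 0.07 with IL-1β (adjusted p = 6.1e-05), alongside Mcl1 itself. Ywhaz, a 14-3-3 protein of the kind that holds BAD, fell by 0.24 and 0.26 in the butyrate comparisons (-0.24 ± 0.04, adjusted p = 7.4e-05, and -0.26 ± 0.04, adjusted p = 3.7e-05). Ppp3ca, a catalytic subunit of calcineurin, the phosphatase that acts on BAD, rose by 0.27 ± 0.05 with butyrate alone (adjusted p = 0.00014).

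Genes with the pattern most like that of Bid and Bcl2l1, the members with the smallest p over the 4 conditions, were sought by Pearson correlation of log2 CPM over the 16 libraries among 12684 genes. Closest to Bid were Pxdn (r = 0.977), Tjp3 (r = 0.973) and Tmem151b (r = 0.972). Pxdn had mean levels of 9.0 CPM in control, 18.8 CPM with IL-1β, 23.1 CPM with both agents and 15.03 CPM with butyrate, the same order of conditions as Bid. Closest to Bcl2l1 were Itm2b (r = 0.977), Il13ra1 (r = 0.972) and Rnaset2a (r = 0.971), the last of which has a near-identical copy. Il13ra1 stood at 18.6, 43.0, 30.7 and 15.6 CPM in that order, highest with IL-1β and lowest with butyrate, as Bcl2l1 did. The points of these correlations share libraries and conditions, so r describes likeness over 4 conditions more than over 16 separate samples.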

How the data were processed

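Gene expression was measured by single-end RNA sequencing of 16 islet libraries, prepared with a kit that does not mark strand. Per the study's methods and the submitters' processing notes, the authors aligned reads with STAR 2.5.3a to GRCm38.p5 and deposited whole-number counts of reads per gene, without normalization; the annotation release and strand setting are not given in the sources used here. The table held 0 columns of other samples.

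Symbols and positions came from GENCODE M21 (52489 of 52636 identifiers). The test was run with edgeR 4.0.16 in R 4.3.3. Low-count genes were left out by filterByExpr with the conditions as groups, and after TMM scaling the program fitted 1 robust quasi-likelihood model to all 16 libraries, without a term for replicate number. P-values were adjusted over all 18587 genes by the Benjamini-Hochberg method, and a gene was called (raised or lowered) below 0.01, the threshold of the study, which used DESeq2. CPM used the TMM-scaled totals. Intervals are the log2 fold change with a 95% t quantile of its SE.

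The 10 genes and all lists were chosen with earlier results of these data known. All 10 are named. From each of the 7 lists of related genes up to 4 called genes with the smallest adjusted p were named, with those the filter removed, and for the 2 members with the smallest p over the 4 conditions the 3 most correlated genes of average log2 CPM of at least 1 (prior count 2). Of the list of genes acting downstream of the mitochondrion, some results are not reported here. Lists of marker genes for 9 cell types were fixed too. The lists of alpha, T and B cell, endothelial and fibroblast and stellate markers summed to 18596 to 27763, 2.07 to 5.01, 10.6 to 19.8 and 4.44 to 20.5 CPM over the 16 libraries. Replicate libraries of a condition differed by more than counting error, with a chi-square per gene of 1.72 to 13.5 for genes of at least 20 counts in a pair. The 4 libraries of a condition come from separate experiments, and reads carried no molecular identifiers. Alternatives used DESeq2 1.42.0, DESeq2 size factors, upper-quartile or library-size scaling, no filter, a replicate block, only both groups compared, a threshold of 0.05 and each library left out. The scripts were tested on simulated data.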

Additional observations from a re-analysis of the deposited data

Results flagged for a closer look

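Of the 10 genes in 4 conditions and the 2 ratios in 4 conditions, 48 groups of 4 libraries were screened for a library far from the others, and 1 was found. Bak1 stood at 8.82 CPM in butyrate replicate 4, while the other 3 butyrate libraries lay between 7.73 and 7.86 CPM, so that its gap to the nearest made up 0.882 of the range of the group. That is above Dixon's 95% limit for 4 values, which chance alone passes in about 1 in 20 groups. Without this library, as with it, the comparison of butyrate with control did not pass the test for Bak1.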

How the results depend on the processing

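Over the alternatives, 1128 of 1190 values of the 10 genes kept their direction and their side of the threshold, 31 lost a call, 19 gained one and 12 changed sign, none of them a called value. With each library left out in turn, the number of the 10 genes called ran from 5 to 7 for IL-1β against control, from 2 to 5 for butyrate on top of IL-1β (2 without IL-1β replicate 2, 3 without replicate 1 or 2 with both agents), from 2 to 3 for butyrate alone, from 5 to 6 for both agents against control, and was 0 for the difference of the butyrate effects. For butyrate alone it was 7 at an adjusted p under 0.05. The sign changes were those of Pmaip1 with IL-1β (-0.16 to 0.31 over the libraries left out), of Mcl1 with butyrate on top of IL-1β (0.00 to 0.05), of Bax with both agents (0.04 with library size only) and, in the interaction, of Bcl2 (-0.17 to 0.02) and Mcl1 (-0.04 to 0.03, 0.03 with library size only and 0.00 without a filter). Their cause was not tested.

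The labels give the same replicate numbers in every condition but do not say that a number marks a shared experiment. The study describes 4 independent experiments for its 4 conditions. Deviations from the condition means over 9796 genes correlated at -0.00469 to 0.547 between libraries of the same number (over 0.1 in 22 of 24 pairs) and at -0.444 to 0.296 between others. Averaged by replicate number over the other conditions, the correlation was highest with the own number for 15 of 16 libraries, a hint of pairing from the data. With the replicate number as a block 5 of the 10 genes were called for butyrate alone, Bid raised and Bax, Bbc3, Bcl2l11 and Pmaip1 lowered. Between libraries of the same number the log2 ratio of Bax to Bcl2 was above control in 4 of 4 with both agents (by 0.23 to 0.37), and that of Bax to Bcl2l1 was below control in 4 of 4 with each treatment, values chosen after seeing the data and not tested. For both agents against control 7 were called with the block, for the difference 0, and the other 2 counts were the same. Over all genes the block gave 4537, 4983, 4879 and 6899 calls in the 4 pairwise comparisons and 132 for the difference, where the fit without it gave 18 for the difference, DESeq2 45 and the fit without a filter 95.

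Scaling moved the split of calls over all genes. With IL-1β 63.0% of calls were raised, against 51.5% with upper-quartile and 79.8% with library-size scaling. With butyrate on top of IL-1β and with butyrate alone 43.1% and 42.9% were raised, against 57.7% and 58.5% with upper-quartile scaling, and with both agents 51.6%, against 66.9% with library-size scaling. Of 73 calls of named genes of the lists, 59 held in all alternatives at the same threshold. The 14 others included those of Bik, Hrk and Foxo3 with IL-1β, of Birc5, Ppp3ca and Fbxw7 with butyrate on top, of Xiap, Tnfrsf1a and Stat3 with butyrate alone, and of Ripk1, Trp53inp1, Phlda3 and Foxo1 with both agents. Pmaip1, with 2 to 43 counts a library, and Bid and Bcl2 are the genes whose precision depth limits most.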
